A study of Mus musculus with 12 samples.

Results

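Levels of the STAT genes STAT2, STAT3, STAT4, STAT5A, STAT5B and STAT6 were examined in CT26 cells, an established colon carcinoma line of the mouse. These 6 genes were found by symbol among the 23636 symbols of the deposited table. RNA sequencing covered 12 samples in 4 groups of 3 biological replicates. Cells were left without treatment, given CX3CL1, given IFN-γ, or given CX3CL1+IFN-γ. The study's methods and a legend give 2 µg/ml of CX3CL1 and 100 ng/ml of IFN-γ for 8 hours. For the IFN-γ arm the text of the study also names TNF-α, which the labels do not. Whether the samples labelled IFN-γ also received TNF-α is thus unsettled, and each IFN-γ value below carries this limit. That text also has CX3CL1 given after these cytokines, an order the labels do not state. Below, an agent said to be added is the one by which the groups compared differ, and no order of giving is meant. No allele or transgene is named for any group, and every sample came from this 1 line.

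STAT proteins are transcription factors that wait in the cytoplasm. When a cytokine binds its receptor, JAK kinases attached to the receptor phosphorylate STAT proteins, which pair and move into the nucleus. There they bind short DNA elements, and several of their target genes, such as the SOCS genes, encode inhibitors of the same pathway. STAT2 works mainly in interferon responses, where it joins IRF9 in the complex ISGF3 and is brought to interferon-stimulated response elements (ISRE). STAT3 serves IL-6 family cytokines and the acute phase response, STAT4 serves IL-12 in lymphocytes, STAT5A and STAT5B serve growth hormone, prolactin and IL-2 family cytokines, and STAT6 serves IL-4 and IL-13. IFN-γ is a cytokine of activated lymphocytes, and CX3CL1 (fractalkine) is the chemokine ligand of CX3CR1.

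The sequence just before the start of a gene is where such elements are most often looked for, so these windows are shown for the STAT genes with the highest levels. Positions are on GRCm38, from GENCODE vM21 for genes and from RefSeq (GRCm38.p6) for the 250 bases before each start. STAT2 (ENSMUSG00000040033.16) spans chr10:128270559-128292849 on the plus strand, and its window is chr10:128270248-128270497. STAT6 (ENSMUSG00000002147.18) spans chr10:127642986-127660957 on the plus strand, with the window chr10:127642736-127642985. STAT3 (ENSMUSG00000004040.16) spans chr11:100885098-100939540 on the minus strand, with the window chr11:100939541-100939790. Capitals mark matches, on either strand, to the ISRE core GAAANNGAAA, to the STAT elements TTCNNNGAA (the gamma-activated sequence) and TTCNNNNGAA, or to an NF-kB element.
STAT2: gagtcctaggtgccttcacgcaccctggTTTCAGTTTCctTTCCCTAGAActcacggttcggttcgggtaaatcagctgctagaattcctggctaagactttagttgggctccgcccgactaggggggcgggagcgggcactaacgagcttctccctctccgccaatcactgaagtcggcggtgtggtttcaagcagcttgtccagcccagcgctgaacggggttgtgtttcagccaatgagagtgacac
STAT3: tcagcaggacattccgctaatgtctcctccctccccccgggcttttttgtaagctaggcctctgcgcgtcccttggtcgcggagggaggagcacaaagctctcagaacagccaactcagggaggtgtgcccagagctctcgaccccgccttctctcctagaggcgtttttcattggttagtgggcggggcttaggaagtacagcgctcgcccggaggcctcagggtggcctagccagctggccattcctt
STAT6: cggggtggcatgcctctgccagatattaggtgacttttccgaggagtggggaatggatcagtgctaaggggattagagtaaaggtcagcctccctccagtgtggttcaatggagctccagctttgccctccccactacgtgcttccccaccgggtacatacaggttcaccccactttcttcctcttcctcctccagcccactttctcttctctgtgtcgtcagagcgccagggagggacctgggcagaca

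The STAT2 window held an ISRE core, read on the minus strand at 222 to 213 bases before the start. A TTCNNNNGAA element followed at 210 to 201 bases before the start. The STAT3 and STAT6 windows held none of the 4 motifs. Of 32851 mouse promoter windows of the same length, 2.98% held the ISRE core, 5.85% held TTCNNNNGAA, 7.02% held TTCNNNGAA and 7.25% held the NF-kB motif. Of 20 genes listed as ISGF3 targets, 16 had a window in the RefSeq table. In 7 of these (43.8%) at least 1 window held the ISRE core. This share counts genes, which can have several windows, whereas the 2.98% counts windows. MX1, MX2, OAS2 and USP18 had no entry. For comparison, the core with its flanking bases is shown for STAT2 (chr10:128270266-128270295, plus strand) and for IFIT3 (chr19:34583397-34583426, plus strand) and GBP2 (chr3:142620594-142620623, plus strand), which are among the 3 genes whose levels went most closely with that of STAT2. The window of the third such gene, UBE2L6, held no core. IFIT3 held another core, whose letters differ from those of STAT2, at chr19:34583363-34583392. Capitals mark the core.
STAT2 core: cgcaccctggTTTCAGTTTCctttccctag
IFIT3 core: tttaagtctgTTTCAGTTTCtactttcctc
GBP2 core: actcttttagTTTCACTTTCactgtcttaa
The 10 core letters of STAT2 and of this IFIT3 site were the same, and a core of IFIT1 had them too. Cores of BST2 and OAS1A had these letters when read on the other strand. These matches describe the letters in the windows, and binding of a factor was not measured.

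STAT5A and STAT5B lie beside STAT3 on chromosome 11. STAT5B (ENSMUSG00000020919.11, chr11:100780731-100850724, minus strand) is 8626 bases from STAT5A (ENSMUSG00000004043.14, chr11:100859351-100885169, plus strand). STAT5A and STAT3 share 72 bases at their ends, on opposite strands. The library kit keeps the strand, but whether the counting used it is not given in the sources used here, so reads in these bases cannot be told apart. STAT5A and STAT5B are close paralogs, so their split of shared reads is uncertain. STAT4 (ENSMUSG00000062939.11) spans chr1:51987148-52107189 on the plus strand, and the window before its second annotated start held an ISRE core. The window before the second STAT5A start held an NF-kB match, and the STAT5B windows had no match.

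Levels are in TPM, which scale transcripts by gene length to a fixed total and carry no read depth. Replicates of a group had Pearson correlations of log2(TPM + 1) between 0.984 and 0.996 over the 11878 genes that averaged 0.2 TPM or more. The CX3CL1 sample of replicate 2 was the least alike its group. Its median absolute log2 differences over the same genes were 0.266 and 0.262, against 0.141 between the other CX3CL1 samples. Of 9 markers of carcinoma epithelium, KRT18 and CDH17 had means of at least 1 TPM and EPCAM was listed at 0 in all 12 samples, while the mesenchymal genes VIM, FN1 and CDH2 were all present. The sum of these 3 was 3959 to 5110 TPM without treatment, 3526 to 4174 TPM with CX3CL1, 2747 to 3782 TPM with IFN-γ and 2067 to 3352 TPM with both agents, and its part in the results was not tested. None of 13 leukocyte markers reached a mean of 1 TPM, their summed level ran from 0.165 to 2.05 TPM, and CD3E, CD4, CD8A, MS4A1 and NCR1 were at 0 in every sample. Of 5 endothelial and fibroblast markers, COL1A1, PDGFRA and PDGFRB averaged 1 TPM or more, and the sum of the 5 was 67.4 to 95.1 TPM without treatment, 48.4 to 66.7 TPM with CX3CL1, 45.8 to 64.9 TPM with IFN-γ and 34.97 to 49.6 TPM with both, whose part in the results was not tested.

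Without treatment, STAT6 had the highest level of the 6 genes. Its mean was 79.1 ± 3.61 TPM (SD, n = 3), higher than 81.1% of the 11878 genes tested. STAT2 followed at 22.5 ± 5.70 TPM and STAT3 at 18.3 ± 3.05 TPM, both near the median of 22.0 TPM of the tested genes, and the samples of these neighbours in the order overlapped. STAT5B stood at 7.93 ± 0.807 TPM and STAT5A at 1.82 ± 0.280 TPM, each without overlap with the gene above it. STAT4 was listed at 0 in the 3 untreated samples. Among the treated samples it reached at most 0.0388 TPM, and it was listed at 0 in 2 CX3CL1 samples and 1 CX3CL1+IFN-γ sample. STAT4 therefore did not pass the filter of a mean of at least 0.2 TPM, no fold is given, and 5 of the 6 genes were tested.

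**Figure D1:**
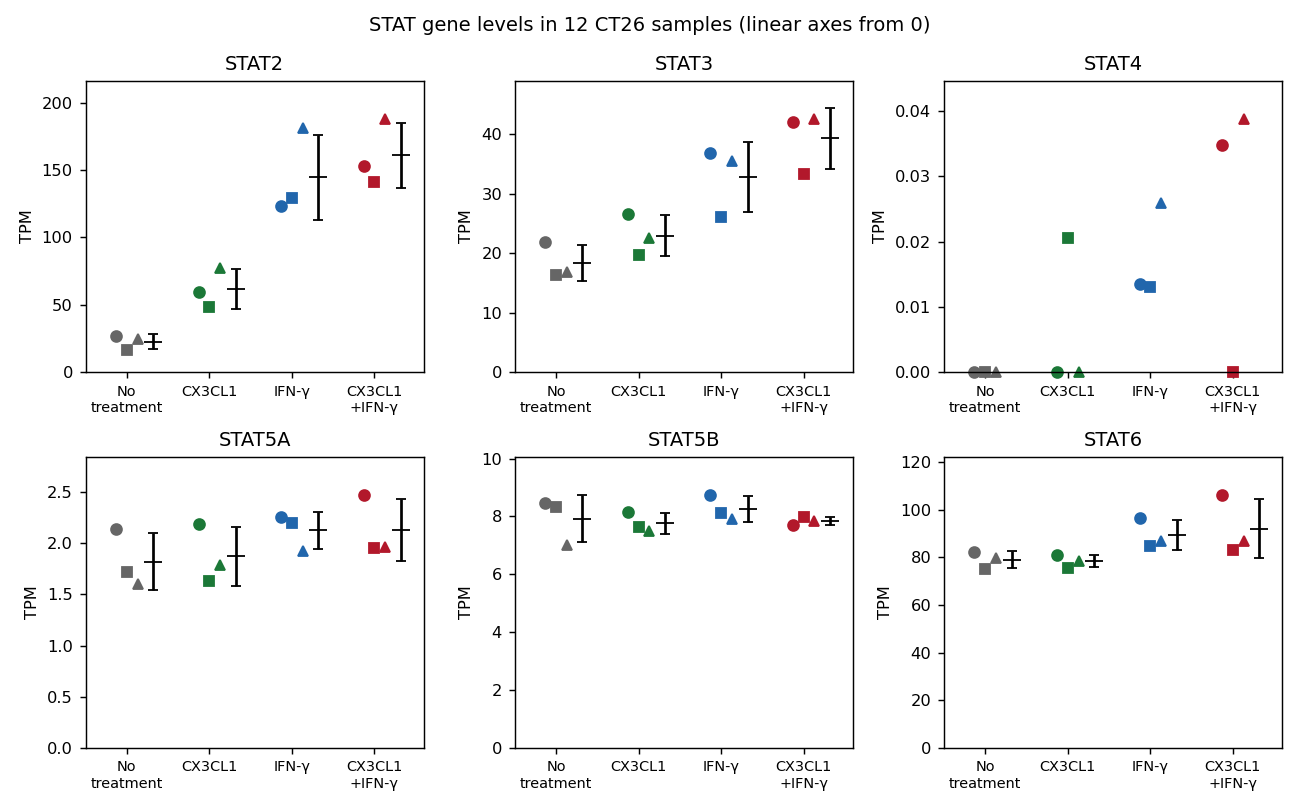
TPM of each STAT gene (vertical axes, linear and starting at 0, each gene on its own scale) in the 4 groups. Circles, squares and triangles are replicates 1, 2 and 3, and the bars give the mean and SD except for STAT4. STAT2 went from 16.1 to 26.9 TPM without treatment to 123 to 181 TPM with IFN-γ, whereas STAT5B stayed between 7.002 and 8.75 TPM in the 12 samples.

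The first comparison set the samples labelled IFN-γ against no treatment. STAT2 and STAT3 rose, and STAT5A, STAT5B and STAT6 did not pass the test. STAT2 was 26.9, 16.1 and 24.6 TPM in the untreated replicates 1, 2 and 3 and 123, 129.5 and 181 TPM with IFN-γ. All IFN-γ samples lay far above all untreated samples. The ratio of the means was 6.41, and pairing the samples by replicate number gave 4.58, 8.04 and 7.35. On the log2(TPM + 1) scale the difference was 2.64 (SE 0.22, 95% interval 2.17 to 3.11, limma adjusted p = 7.6e-06), rank 82 of the 11878 genes. In bulk RNA, more cells that express a gene and more RNA per cell cannot be told apart.

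STAT3 was 21.8, 16.4 and 16.8 TPM without treatment and 36.9, 26.1 and 35.5 TPM with IFN-γ. The groups did not overlap, and replicate 2 was the lowest in both. The means of 18.3 ± 3.05 and 32.8 ± 5.87 TPM (SD, n = 3) differed 1.79-fold. The log2 difference of 0.80 (SE 0.16, 95% interval 0.44 to 1.16) passed with a limma adjusted p of 0.0089, at rank 402. Over the 14 alternative analyses, this adjusted p ran from 1.9e-04 to 0.0499.

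STAT6, the IL-4 and IL-13 factor, was 82.3, 75.2 and 79.7 TPM without treatment and 96.6, 84.7 and 86.7 TPM with IFN-γ. The IFN-γ samples all lay above the untreated ones, but the margin was small, and the log2 difference of 0.17 (95% interval -0.05 to 0.39) had a limma adjusted p of 0.354. STAT5A was 1.60 to 2.14 TPM without treatment and 1.92 to 2.26 TPM with IFN-γ (log2 difference 0.15, 95% interval -0.11 to 0.41, limma adjusted p = 0.501). STAT5B was 7.002 to 8.47 and 7.91 to 8.75 TPM (log2 difference 0.06, 95% interval -0.17 to 0.28, limma adjusted p = 0.806), and both STAT5 genes overlapped between the groups. Thus 2 of 5 tested STAT genes were called higher and 0 lower, where 5.91% of all tested genes were called higher (702 genes, or 1353 with the replicate number as a block). The split of all calls was 702 higher and 230 lower, against 640 and 351 after median-ratio scaling and 556 and 536 after quantile normalization. Every IFN-γ sample lay above every untreated one in 3 of the 5, where 20.6% of all tested genes did so. The median log2 difference of the 5 genes was 0.17, beside 0.03 over all tested genes.

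The second comparison asked what CX3CL1 alone did. STAT2 rose, and none of the other 4 tested genes passed. STAT2 was 59.5, 48.1 and 77.2 TPM in the CX3CL1 replicates, each above the highest untreated value of 26.9 TPM and below the lowest IFN-γ value of 123 TPM. The mean of 61.6 ± 14.7 TPM (SD, n = 3) was 2.73 times the untreated mean, and the ratios by replicate number were 2.21, 2.99 and 3.14. The log2 difference was 1.42 (SE 0.22, 95% interval 0.95 to 1.88, limma adjusted p = 0.0029), rank 99 of the tested genes. Without the CX3CL1 sample of replicate 2 it was 1.58 (limma adjusted p = 0.0040).

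STAT3 was 26.6, 19.6 and 22.6 TPM with CX3CL1. This range overlapped with the untreated samples, although each CX3CL1 sample was above the untreated sample of its number, by 1.217, 1.20 and 1.35 times. Over all tested genes, same-numbered samples of these groups did not all deviate together (lowest correlation 0.0047), so the numbers may not mark pairs. The STAT3 log2 difference of 0.31 (95% interval -0.05 to 0.67) had a limma adjusted p of 0.783, or 0.361 without the CX3CL1 sample of replicate 2. STAT6 stayed at 75.6 to 80.9 TPM with CX3CL1 against 75.2 to 82.3 TPM without, a log2 difference of -0.01 with a 95% interval of -0.23 to 0.21. STAT5A differed by 0.03 (95% interval -0.23 to 0.29) and STAT5B by -0.02 (95% interval -0.25 to 0.20), and the limma adjusted p of all 3 genes was 1.00. Of the 5 tested STAT genes, 1 was called higher, where 1.78% of tested genes were, and the median over the 5 genes was 0.03, beside -0.02 over all genes. STAT2 was also the 1 gene of the 5 with every CX3CL1 sample above every untreated sample, where 5.5% of tested genes had this. The untreated samples are shared by this comparison and the first.

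The third comparison added CX3CL1 to IFN-γ. None of the 5 tested STAT genes passed, and 0.345% of all genes were called higher (41 genes, or 89 with the replicate block). STAT2 was 153, 141 and 188 TPM with both agents, a range that overlapped with that of IFN-γ alone. Its ratios by replicate number were 1.24, 1.09 and 1.04, and its log2 difference was 0.16 (95% interval -0.30 to 0.63, limma adjusted p = 0.975). STAT3 was 42.0, 33.4 and 42.6 TPM, again with replicate 2 lowest, and overlapped with the IFN-γ samples. It was above the IFN-γ sample of the same number in 3 of 3 pairs, by 1.14, 1.28 and 1.20 times, with a log2 difference of 0.26 (95% interval -0.10 to 0.62, limma adjusted p = 0.975).

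STAT6 reached 106 TPM in replicate 1 with both agents, its highest value, and was 82.9 and 87.0 TPM in the others. The difference from IFN-γ alone was 0.04 on the log2 scale (95% interval -0.18 to 0.26, limma adjusted p = 0.986). STAT5A was 1.95 to 2.48 TPM with both agents, with a log2 difference of -0.00 (95% interval -0.26 to 0.26). STAT5B was 7.72 to 7.99 TPM, with a log2 difference of -0.06 (95% interval -0.28 to 0.16). No STAT gene had every sample with both agents above every IFN-γ sample, where 8.54% of the tested genes did.

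The fourth comparison added IFN-γ to CX3CL1. STAT2 rose from 61.6 ± 14.7 to 161 ± 24.1 TPM (SD, n = 3), a ratio of 2.61 without overlap. The ratios by replicate number were 2.57, 2.94 and 2.43, and the log2 difference was 1.39 (SE 0.22, 95% interval 0.92 to 1.85, limma adjusted p = 0.0025), or 1.2235 without the CX3CL1 sample of replicate 2 (limma adjusted p = 0.0132). STAT3 rose from 22.9 ± 3.48 to 39.3 ± 5.16 TPM, a ratio of 1.71 and a log2 difference of 0.75 (SE 0.16, limma adjusted p = 0.0200). This STAT3 call was lost when 1 of 4 samples was left out. The limma adjusted p was then 0.0555 in the absence of CX3CL1 replicate 2, 0.0614 in that of CX3CL1 replicate 3, 0.0754 without CX3CL1+IFN-γ replicate 1 and 0.0985 without CX3CL1+IFN-γ replicate 3. STAT6 had every sample with both agents above every CX3CL1 sample, but its log2 difference of 0.22 (95% interval from just above 0 to 0.44) had a limma adjusted p of 0.282. STAT5A (0.12, 95% interval -0.13 to 0.38) and STAT5B (0.02, 95% interval -0.20 to 0.24) did not pass. So 2 of 5 genes were called higher, beside 3.76% of all tested genes (447 genes, or 1035 with the replicate block), and 3 of 5 had no overlap, beside 14% of the tested genes. Over all genes the split was 447 higher and 111 lower, against 357 and 187 after median-ratio scaling and 349 and 228 after quantile normalization.

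Against no treatment, both agents together gave the largest ratios of the means for STAT2, 7.13, and for STAT3, 2.15. The log2 differences were 2.80 for STAT2 (SE 0.22, limma adjusted p = 2.7e-06) and 1.06 for STAT3 (SE 0.16, limma adjusted p = 7.2e-04), and both genes were called in all 14 alternatives. STAT6 had a ratio of 1.16 and a log2 difference of 0.21 (95% interval -0.01 to 0.43, limma adjusted p = 0.231). STAT5A at 0.15 (95% interval -0.11 to 0.41) and STAT5B at -0.01 (95% interval -0.23 to 0.21) did not pass. The share called higher was 2 of 5, beside 8.21% of all tested genes, and 3 of 5 had no overlap, beside 18.6%. The split of 975 higher and 442 lower became 797 and 888 after quantile normalization.

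**Figure D2:**
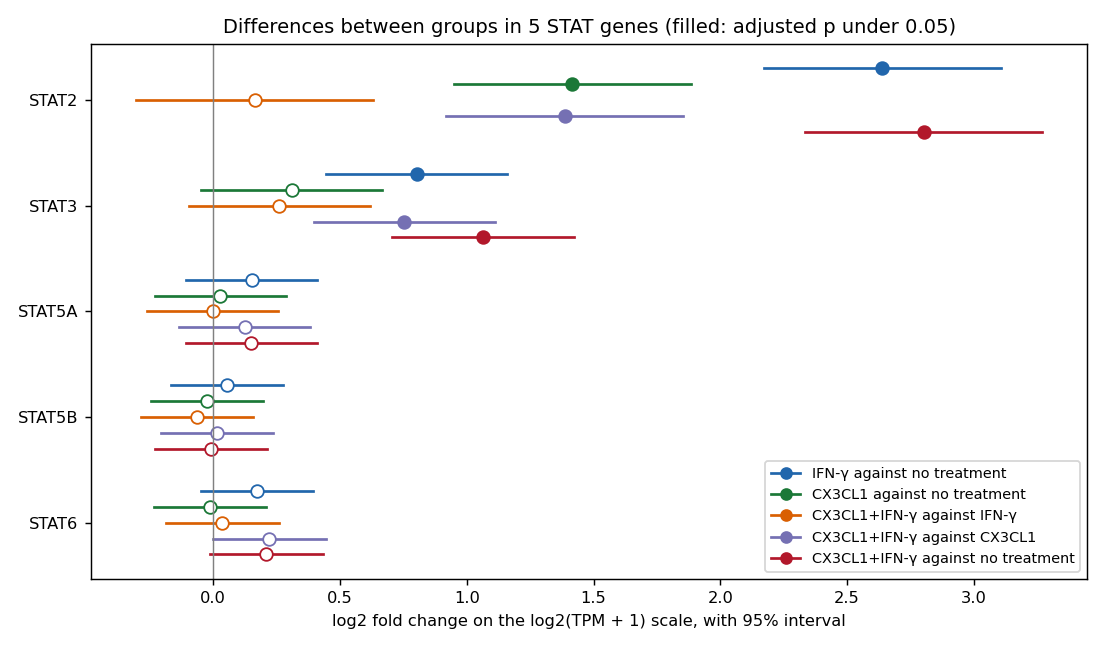
Log2 fold changes on the log2(TPM + 1) scale (horizontal axis) with 95% intervals for the 5 tested STAT genes in 5 comparisons, marked by color. Filled points passed at an adjusted p under 0.05: STAT2 in 4 of the 5 comparisons and STAT3 in 3, while the intervals of STAT5A and STAT5B included 0 in all 5.

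The interaction asks whether the IFN-γ difference was the same with and without CX3CL1. For STAT2 the IFN-γ difference was 2.64 without and 1.39 with CX3CL1 on the log2 scale, and the interaction was -1.25 (SE 0.30, 95% interval -1.91 to -0.59). Its unadjusted p was 0.0013 and its limma adjusted p over 11878 genes was 0.347, so it did not pass in this fit without a block. Its rank of 11807 placed it among the most negative interactions. No gene passed in either direction (0% of those tested), while 273 genes had an unadjusted p under 0.05 in limma. The interactions of STAT3, STAT5A, STAT5B and STAT6 were -0.05, -0.03, -0.04 and 0.05, each with an interval that included 0.

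The order of the STAT genes by level was not the same in the 4 groups. STAT2 was below STAT6 in every untreated sample, overlapped with STAT6 in the CX3CL1 samples (48.1 to 77.2 against 75.6 to 80.9 TPM), and was above it in every sample given IFN-γ, alone or with CX3CL1. The mean level of STAT2 was higher than 50.7% of the tested genes without treatment, 75.8% with CX3CL1, 90.0% with IFN-γ and 90.9% with both agents. STAT3 moved from 45.3% to 50.6%, 59.1% and 63.7% in the same order. STAT6 stayed between 80.6% and 83.4%, STAT5B between 26.6% and 28.0%, and STAT5A between 13.7% and 13.9%.

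The summed level of the 6 genes was 129.7 ± 12.02 TPM without treatment, 173 ± 18.0 TPM with CX3CL1, 277 ± 32.2 TPM with IFN-γ and 302 ± 31.0 TPM with both agents (SD, n = 3). STAT2 made up 17.2 ± 3.07% of this sum without treatment, 35.4 ± 5.06% with CX3CL1, 51.8 ± 5.86% with IFN-γ and 53.1 ± 4.13% with both. The share of STAT6 was 61.1% ± 2.91, 45.7% ± 3.83, 32.5% ± 4.32 and 30.5% ± 3.77 in the same groups. STAT3 kept a share of 11.8% to 14.1% by group mean, since its level went up with the sum. STAT5B went from 6.15% to 2.62% and STAT5A from 1.40% to 0.708% of the sum, with levels that differed little. Because shares add to the whole, a lower share is not a lower level.

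**Figure D3:**
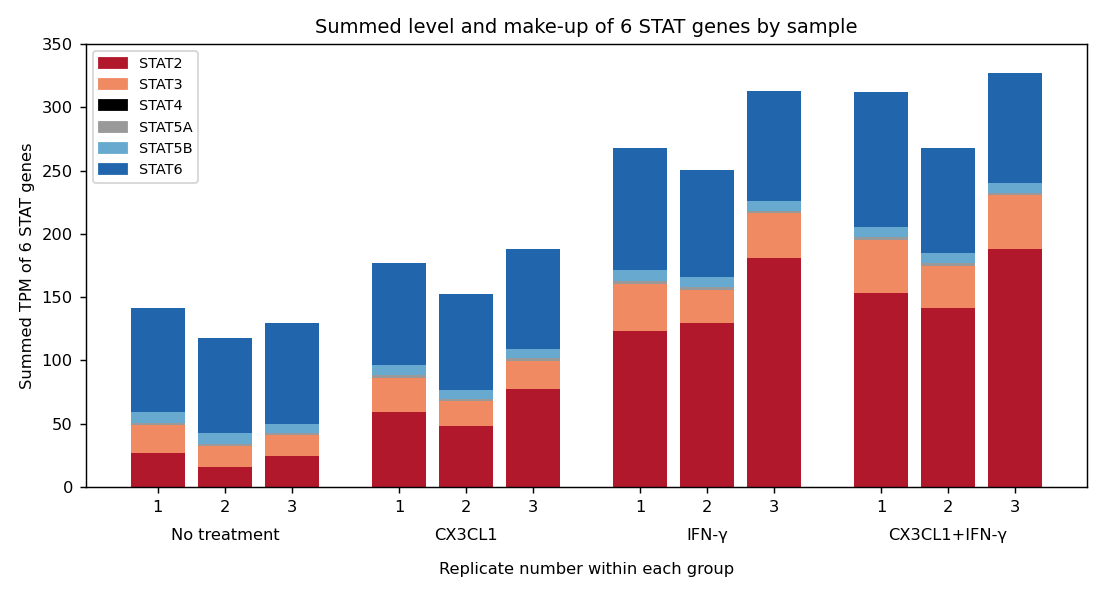
Stacked bars of the TPM of the 6 STAT genes in each of the 12 samples (vertical axis, summed TPM from 0), by group and replicate number. The red STAT2 segment was 16.1 to 26.9 TPM without treatment and 123 to 188 TPM in the 6 samples given IFN-γ, while the dark blue STAT6 segment was 75.2 to 106 TPM in all 12.

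In STAT3, STAT5A and STAT6, samples with the same replicate number shared some of their deviations. STAT3 was lowest in replicate 2 in each of the 4 groups, and STAT6 was highest in replicate 1 and lowest in replicate 2 in each of the 4. STAT5A was highest in replicate 1 in each group. STAT2 was highest in replicate 1 without treatment and in replicate 3 in the other groups. STAT5B was highest in replicate 1 except with both agents, where replicate 1 was lowest (7.72 TPM). What a replicate number shares is not given in the labels. Over the 12 samples, the log2(TPM + 1) values of STAT2 and STAT3 had a Pearson r of 0.909, STAT3 and STAT6 0.803, STAT5A and STAT6 0.798, and STAT2 and STAT5B 0.0778. These values describe 12 samples that share groups and replicate numbers.

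Genes outside the family were ranked by the same correlation among the 10747 genes that averaged 1 TPM or more. Nearest to STAT2 were IFIT3, an interferon-induced antiviral protein (r = 0.997), UBE2L6, the conjugating enzyme for ISG15 (r = 0.995), and GBP2, an interferon-induced GTPase (r = 0.995). IFIT3 averaged 5.49 TPM without treatment, 37.3 with CX3CL1, 205 with IFN-γ and 260.3 TPM with both, the same order of groups as STAT2. Nearest to STAT3 were GLA, the lysosomal alpha-galactosidase (r = 0.981), C130026I21RIK (r = 0.980) and SERPINB6B, a serine protease inhibitor (r = 0.976). STAT5A was nearest to PITPNM2 (0.936), MED24 (0.934) and TMEM104 (0.927), STAT5B to ASB8 (0.924), NEK9 (0.909) and ATP8B2 (0.902), and STAT6 to BRPF3 (0.975), WDR62 (0.972) and SAMD4B (0.972). GLA averaged 22.6, 28.8, 52.2 and 58.3 TPM in the same order of groups. BRPF3 averaged 15.9, 16.3, 22.4 and 24.7 TPM.

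The 4 JAK kinases, which phosphorylate STAT proteins, were all expressed. Without treatment JAK1 averaged 57.4 ± 5.89 TPM, JAK2 41.6 ± 6.76, TYK2 8.57 ± 1.53 and JAK3 5.06 ± 0.680 TPM (SD, n = 3). With IFN-γ alone, 0 of 4 passed. JAK3 was 8.79 ± 1.73 TPM (log2 difference 0.68, limma adjusted p = 0.0510) and TYK2 11.6 ± 1.76 TPM (log2 difference 0.40, limma adjusted p = 0.260). With the replicate number as a block both passed (limma adjusted p = 0.0022 and 0.0227). Of the 11878 tested genes, 1353 were called higher under the block. JAK1 at 0.06 (limma adjusted p = 0.796) and JAK2 at -0.04 (limma adjusted p = 0.914) gave no call. Leaving out IFN-γ replicate 2 gave 1 call among the 4. Among the other comparisons, 0 of 4 passed with CX3CL1 alone (log2 differences 0.00 to 0.37) or when CX3CL1 was added to IFN-γ, where JAK2 had a log2 difference of 0.59 (limma adjusted p = 0.474). When IFN-γ was added to CX3CL1, 0 passed, or 1 with the block (JAK3, log2 difference 0.64, limma adjusted p = 0.0044), and 1 without CX3CL1+IFN-γ replicate 2. Under the block 1035 of all tested genes were called higher in that comparison. With both agents against no treatment JAK3 rose (0.65, limma adjusted p = 0.0491), beside 8.21% of all tested genes. This count of 1 became 0 without untreated replicate 2 or 3 or CX3CL1+IFN-γ replicate 1 or 3, and 2 without CX3CL1+IFN-γ replicate 2.

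Of 34 cytokine receptor chains, 16 passed the filter on low TPM, and 3 rose with IFN-γ, where 5.91% of all tested genes were called higher. These were IL2RG, the shared chain of the IL-2 family (log2 difference 1.32, limma adjusted p = 1.5e-04), IL13RA1, a chain of the IL-13 receptor (1.11, limma adjusted p = 0.0013), and OSMR, the oncostatin M receptor (0.79, limma adjusted p = 0.0287). With the replicate block the count was 8, where 1353 of the 11878 tested genes were called higher. It was 2 without untreated replicate 2 or 3 or IFN-γ replicate 1 or 3, and 4 without untreated replicate 1 or IFN-γ replicate 2. IL2RG stood at 2.05 ± 0.378 TPM without treatment and 6.63 ± 1.13 TPM with IFN-γ, OSMR at 0.230 ± 0.0665 and 1.17 ± 0.508 TPM, and IL13RA1 at 0.138 ± 0.0214 and 1.51 ± 0.649 TPM (SD, n = 3). IL13RA1 was under 0.2 TPM without treatment and passed the filter through the other groups, so its call is a description and supports nothing. No receptor chain passed with CX3CL1 alone in the fit without a block, and 1 did without untreated replicate 1, where 1.78% of all genes were called higher. The same 3 chains rose when IFN-γ was added to CX3CL1, beside 3.76% of all genes. Under the block 6 were called there, where 1035 of the 11878 tested genes were called higher. No chain passed when CX3CL1 was added to IFN-γ, or 1 under the block, where 89 of all tested genes were called higher.

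Among 7 partners and coactivators of STAT proteins, IRF9 and NMI rose with each agent alone, where 5.91% of all tested genes were called higher with IFN-γ and 1.78% with CX3CL1. IRF9, the DNA-binding partner of STAT2, was 26.2 ± 3.72 TPM without treatment, 46.2 ± 5.09 TPM with CX3CL1, 58.0 ± 1.34 TPM with IFN-γ and 60.4 ± 1.14 TPM with both (SD, n = 3). Its log2 differences from no treatment were 0.80 with CX3CL1 (limma adjusted p = 0.0018) and 1.12 with IFN-γ (limma adjusted p = 2.9e-05). NMI, which binds STAT proteins, rose by 1.07 with CX3CL1 (limma adjusted p = 0.0033) and 2.37 with IFN-γ (limma adjusted p = 3.7e-06) on the same scale. When IFN-γ was added to CX3CL1, NMI alone passed (1.48), or 2 of the 7 without CX3CL1+IFN-γ replicate 2, beside 3.76% of all genes. Under the block 3 of the 7 passed there, where 1035 of the 11878 tested genes were called higher. No partner passed when CX3CL1 was added to IFN-γ. Medians over the 7 genes were 0.13 with IFN-γ and -0.00 with CX3CL1, beside 0.03 and -0.02 over all tested genes.

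Of 17 tested STAT inhibitors of 18 listed, 2 rose with IFN-γ, beside 5.91% of all tested genes. USP18, which blocks the type I interferon receptor and removes ISG15, went from 33.1 ± 10.5 to 306 ± 59.8 TPM (log2 difference 3.20, limma adjusted p = 1.4e-05). SOCS1, a JAK inhibitor, went from 11.03 ± 1.68 to 23.1 ± 7.58 TPM (0.97, limma adjusted p = 0.0327). The count fell to 1 when any 1 untreated sample or the IFN-γ sample of replicate 3 was left out. With CX3CL1 alone USP18 rose by 2.42 (limma adjusted p = 5.8e-04) and was the 1 inhibitor called, beside 1.78% of all genes. None passed when CX3CL1 was added to IFN-γ, or 1 without the CX3CL1+IFN-γ sample of replicate 2. When IFN-γ was added to CX3CL1, SOCS3, the inhibitor of IL-6 family signaling, was the 1 gene called (1.10, limma adjusted p = 0.0075), beside 3.76% of all genes. There 3 inhibitors passed under the block, where 1035 of the 11878 tested genes were called higher. Without CX3CL1 replicate 2 or CX3CL1+IFN-γ replicate 1 the count was 2.

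The 20 ISGF3 target genes, many of which encode antiviral proteins, were all tested. With IFN-γ, 20 of 20 rose (median log2 difference 2.80, beside 0.03 over all genes), as they did in each of the 6 analyses that left out 1 sample. The largest rises were in IFIT3 (4.997), MX1 (4.31), RSAD2 (4.28), MX2 (4.06), IRF7 (3.84) and IFIT1 (3.42). With CX3CL1 alone 16 of 20 rose (median 1.71, beside -0.02). They were led by IFIT3 (2.61), USP18 (2.42), RSAD2 (2.41), MX2 (2.37), IFIT1 (2.27) and IFI44 (2.14). This count was 17 without untreated replicate 1 or CX3CL1 replicate 2, and 15 without untreated replicate 2 or CX3CL1 replicate 3. Adding CX3CL1 to IFN-γ left 0 of 20 called (median 0.22, beside -0.00). Adding IFN-γ to CX3CL1 raised 17 of 20 (median 1.12, beside 0.04). That count was 6 when CX3CL1+IFN-γ replicate 3 was left out, 10 when CX3CL1 replicate 1 was and 11 when CX3CL1 replicate 2 was. Of all tested genes, 5.91%, 1.78%, 0.345% and 3.76% were called higher in these comparisons, in the order given. The interactions of all 20 were negative (median -1.50, beside 0.01 over all genes), and 0 passed in the fit without a block.

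The STAT3 target list held 19 genes, all tested. With IFN-γ, 8 rose with the replicate block, where 1353 of the 11878 tested genes did. Without it 5 rose, beside 5.91% of all tested genes. These were SAA3, an acute phase protein (4.44), BCL3, an atypical IkB protein (1.63), JUNB, an AP-1 subunit (0.94), CEBPB, a C/EBP factor (0.75), and MYC (0.45). With CX3CL1 alone 3 rose, SAA3 (2.85, limma adjusted p = 0.0230), CEBPD (2.60, 0.0064) and BCL3 (1.60, 0.0153), but only 1 passed without untreated replicate 2 or 3 or without CX3CL1 replicate 1 or 3. Adding CX3CL1 to IFN-γ gave 0 calls, or 4 with the block, 1 without IFN-γ replicate 1 and 2 without CX3CL1+IFN-γ replicate 2. Adding IFN-γ to CX3CL1 raised 4, namely SAA3 (3.15), BCL3 (1.48), SOCS3 (1.10) and CEBPB (0.85), or 8 with the block. Without the block, the shares of all tested genes called higher in the last 3 of these comparisons were 1.78%, 0.345% and 3.76%. Under it, 89 of the 11878 tested genes rose when CX3CL1 was added to IFN-γ and 1035 when IFN-γ was added to CX3CL1. The list medians were 0.33, 0.13, 0.17 and 0.37 in these 4 comparisons, beside 0.03, -0.02, -0.00 and 0.04 over all tested genes.

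Of the targets of the remaining STAT proteins, those that passed the filter were 4 of 10 for STAT4, 9 of 12 for STAT5 and 5 of 13 for STAT6. Among the 11878 tested genes, 5.91% were called higher with IFN-γ (230 genes lower), 1.78% with CX3CL1 and 0.345% when CX3CL1 was added to IFN-γ. The share was 3.76% when IFN-γ was added to CX3CL1 (111 genes lower) and 8.21% with both agents against no treatment. With IFN-γ, GADD45G of the STAT4 list rose (0.63, limma adjusted p = 0.0106), a call lost without IFN-γ replicate 2. From the STAT5 list BCL6, a transcriptional repressor, rose (0.64, limma adjusted p = 0.0134) and the growth factor IGF1 fell by 0.55 (limma adjusted p = 0.0192). IGF1 averaged 0.556 TPM without treatment and 0.0469 TPM with IFN-γ, and passed the filter through the untreated and CX3CL1 groups, where it is high, so its call is a description and supports nothing. In this list 0 genes passed without untreated replicate 3 or IFN-γ replicate 3, 1 rose and 0 fell without untreated replicate 1 or IFN-γ replicate 2, and 0 rose and 1 fell without untreated replicate 2. From the STAT6 list, IL13RA2, the decoy receptor for IL-13, rose in each of the 5 comparisons between groups. It was 0.354 ± 0.0593 TPM without treatment, 4.78 ± 0.830 TPM with CX3CL1, 3.88 ± 0.641 TPM with IFN-γ and 20.5 ± 1.28 TPM with both (SD, n = 3). GATA3 also rose with IFN-γ (0.79, limma adjusted p = 0.0041), where 4 STAT6 targets rose and 1 fell under the block. With IFN-γ, 1353 of the 11878 tested genes rose and 576 fell under the block. MRC1 also rose with CX3CL1 (1.25, limma adjusted p = 0.0330), and this count of 2 fell to 1 without untreated replicate 2 or 3 or CX3CL1 replicate 2 or 3. CCL17 fell by 2.11 when IFN-γ was added to CX3CL1 (limma adjusted p = 0.0251), where 2 STAT6 targets rose under the block or without CX3CL1 replicate 2. In that comparison 1035 of the 11878 tested genes rose and 334 fell under the block. CCL17 was not called without CX3CL1 replicate 1 or 3 or CX3CL1+IFN-γ replicate 2 or 3.

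**Figure D4:**
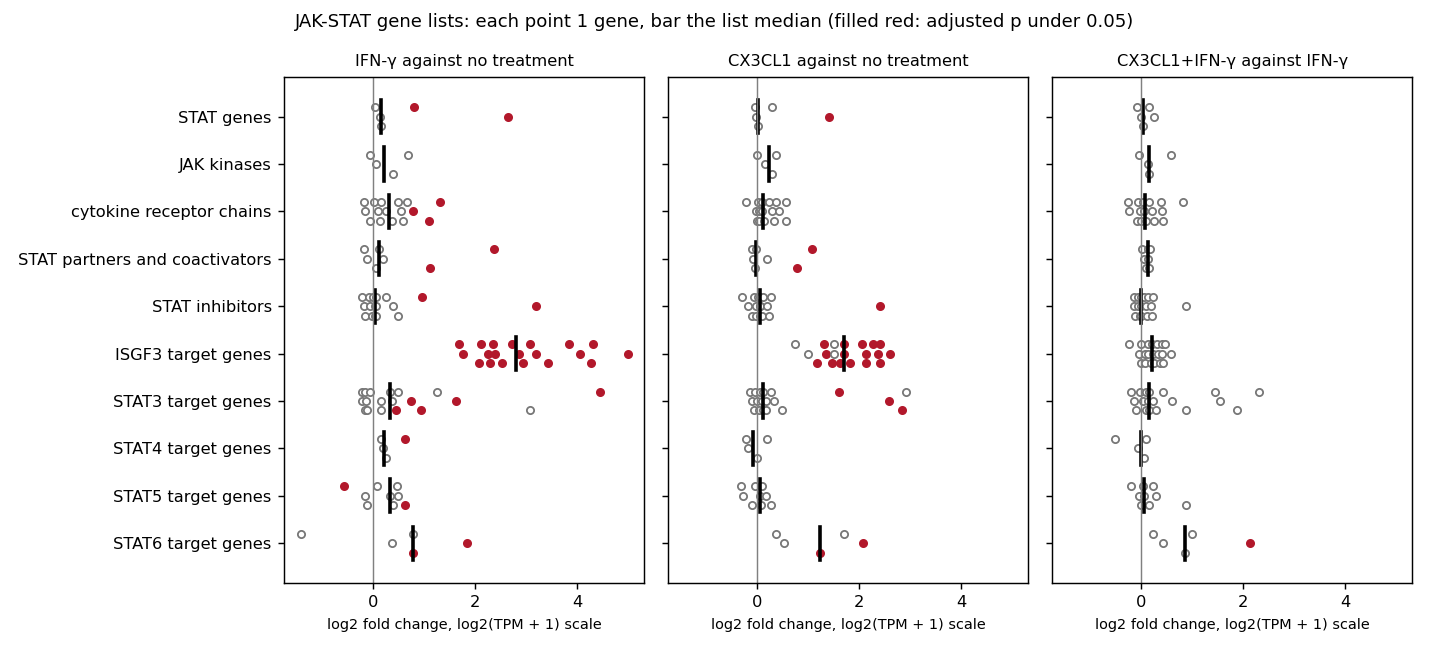
Log2 fold changes on the log2(TPM + 1) scale (horizontal axes) of the STAT genes and 9 lists of related genes in 3 comparisons, with 1 point a gene and a black bar at the list median. Filled red points passed at an adjusted p under 0.05. All 20 ISGF3 target genes passed with IFN-γ and 16 with CX3CL1, against 0 when CX3CL1 was added to IFN-γ. Of all tested genes, 5.91%, 1.78% and 0.345% were called higher in the same comparisons.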

How the data were processed

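Per the labels and the study's methods, mRNA libraries of CT26 cells were made with a strand-specific kit, and the authors aligned reads to mm10 with STAR 2.7.3a in the VIPER pipeline and tested gene counts with DESeq2 1.22.1. The values the authors deposited are TPM, which sum to 1000000 in each of 12 columns. The conversion to TPM, the annotation and any gene filter are not given in the sources used here. The methods name a target depth per library, but the depth reached in each sample is unknown, so no counting interval is given. Counts were not analysed here.

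Groups were taken from the labels. Tests used limma 3.58.1 in R 4.3.3 (lmFit and eBayes, intensity trend on) with log2(TPM + 1) values, a pseudocount of 1, the 11878 genes that averaged 0.2 TPM or more, all 12 samples, no block, and Benjamini-Hochberg adjustment within each comparison at a threshold of 0.05. A fold change on this scale understates that of low genes. With 3 samples a group, an exact permutation test of 1 gene cannot go below p = 0.1, so none was used. The fit was tested on simulated data. Tables and figures used Python 3.11.15 and pandas 2.3.3. STAT gene members, pathway lists and alternatives were chosen with earlier results of these data known, and the lists carry no test of their own. From a list, the genes named are those called in the comparison described, up to 6 with the largest change, and any JAK kinase. USP18, SOCS3 and several others stand in more than 1 list. The motifs were searched on both strands.

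Replicate numbers come from the labels, which do not say what a number shares. Correlations of same-numbered deviations from the group means were over 0.1 in every pair for no treatment with IFN-γ (0.22 to 0.46), CX3CL1 with IFN-γ (0.23 to 0.58), CX3CL1 with CX3CL1+IFN-γ (0.35 to 0.43) and IFN-γ with CX3CL1+IFN-γ (0.63 to 0.65). For no treatment the lowest was 0.0047 with CX3CL1 and 0.032 with CX3CL1+IFN-γ.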

Additional observations from a re-analysis of the deposited data

How the results depend on the processing

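STAT2 was called higher in all alternatives of the 4 comparisons in which it passed, and STAT3 in all those of IFN-γ against no treatment and of CX3CL1+IFN-γ against no treatment. STAT5A, STAT5B and STAT6 passed in none. Against CX3CL1 alone, STAT3 with both agents had log2 differences of 0.65 to 0.87 with 1 sample left out, so that 1 to 2 STAT genes were called. The lowest value was without CX3CL1 replicate 2.

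With the replicate number as a block, the genes called were 1929 (932 without it) for IFN-γ against no treatment, 455 (232) for CX3CL1 against no treatment, 95 (43) for CX3CL1+IFN-γ against IFN-γ, 1369 (558) for CX3CL1+IFN-γ against CX3CL1, 2464 (1417) for CX3CL1+IFN-γ against no treatment and 52 (0) for the interaction. Under the block the STAT2 interaction, -1.25, passed (limma adjusted p = 0.0189) and was the 1 STAT gene called lower, and the block changed no other STAT call. The interaction draws on pairs of groups whose numbers did not all deviate together. Where same-numbered samples did not all deviate together, the list genes called higher under the block, with the count without it in brackets, were for CX3CL1 against no treatment 18 ISGF3 (16), 5 STAT3 (3) and 3 STAT6 targets (2) and 1 receptor chain (0), and for CX3CL1+IFN-γ against no treatment 3 JAK kinases (1), 9 receptor chains (6), 3 partners (2), 4 inhibitors (3) and 11 STAT3 targets (9). The other lists kept their counts of genes called higher in these comparisons, and 1 STAT3 target (0) and 2 STAT5 targets (1) were lower in the latter. Of the 11878 tested genes, 347 (212) were called higher for CX3CL1 against no treatment. For CX3CL1+IFN-γ against no treatment 1578 (975) were called higher and 886 (442) lower. In the interaction 10 ISGF3 targets, 1 partner and 1 inhibitor were called, all negative (0 without the block). Of all tested genes, 49 (0) were called negative there.

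CX3CL1+IFN-γ against IFN-γ gave 28 calls with no filter on low TPM and 20 with only the samples compared. CX3CL1+IFN-γ against CX3CL1 gave 344 with only the samples compared, and the interaction gave 1 after quantile normalization. The cause was not tested. With 1 sample left out, the calls ran from 530 (no untreated replicate 3) to 764 for IFN-γ against no treatment, 152 (no untreated replicate 3) to 268 for CX3CL1 against no treatment, 16 (no CX3CL1+IFN-γ replicate 3) to 54 for CX3CL1+IFN-γ against IFN-γ, 270.0 (no CX3CL1+IFN-γ replicate 3) to 668 for CX3CL1+IFN-γ against CX3CL1, 924 (no CX3CL1+IFN-γ replicate 3) to 1345 for both agents against no treatment, and 0 to 11 (no untreated replicate 1) for the interaction.

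Log2 differences that turned sign were small and not called. After quantile normalization STAT5B was -0.08 for IFN-γ against no treatment and -0.11 for CX3CL1+IFN-γ against CX3CL1, and STAT5A was 0.014 for CX3CL1+IFN-γ against IFN-γ and -0.020 for CX3CL1+IFN-γ against CX3CL1. After median-ratio scaling, CX3CL1 against no treatment was 0.0031 for STAT5B and 0.019 for STAT6, STAT5A was 8.2e-04 for CX3CL1+IFN-γ against IFN-γ, and STAT5B was -0.045 for CX3CL1+IFN-γ against CX3CL1. With 1 sample left out, the ranges that crossed 0 were, for IFN-γ against no treatment, STAT5B -0.022 to 0.10. For CX3CL1 against no treatment they were STAT5A -0.051 to 0.11, STAT5B -0.10 to 0.020 and STAT6 -0.047 to 0.018. For CX3CL1+IFN-γ against IFN-γ they were STAT5A -0.079 to 0.039 and STAT6 -0.070 to 0.11. STAT5B ran from -0.0053 to 0.049 for CX3CL1+IFN-γ against CX3CL1 and from -0.085 to 0.036 for CX3CL1+IFN-γ against no treatment. Interactions ran from -0.20 to 0.063 for STAT3, -0.11 to 0.050 for STAT5A, -0.084 to 0.038 for STAT5B and -0.058 to 0.12 for STAT6. No scaling moved the median of all genes by over 0.1. TPM carry no depth, so the limit of detection for STAT4 is unknown.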
